A study of Homo sapiens with 6 samples.

Results

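The CDK inhibitors and the RB family were taken as all probe sets annotated to 10 genes: the CIP/KIP inhibitors CDKN1A, CDKN1B and CDKN1C, the INK4 inhibitors CDKN2A, CDKN2B, CDKN2C and CDKN2D, and the pocket proteins RB1, RBL1 and RBL2. Of the 10 genes, 9 had at least 1 probe set in the annotation used, 22 of 54613 probe sets in all, and CDKN2C was not analysed here. RNA was measured in IGROV1, an established human ovarian carcinoma cell line, after sorting of cells stained with Hoechst 33342, a DNA-binding dye. The 2 groups were side population (SP) cells, which keep little of the dye, and cells from outside the SP gate (non-SP): 3 samples each, 1 array per sample, and no other treatment in either group. Both groups were stained, and dye left in the cells and membership of a group cannot be told apart. The labels call the samples biological replicates but name no separate cultures. All p-values below therefore set a group difference against the spread among these samples only. Part of that spread may be technical, and the samples may not be independent cultures.

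Cells pass from G1 into S phase when cyclin-dependent kinases (CDKs) phosphorylate the RB family proteins, which otherwise hold E2F transcription factors in repressive complexes. INK4 proteins bind CDK4 and CDK6, whereas CIP/KIP proteins bind cyclin-CDK complexes more widely. Resting cells are known for low CDK activity, for inhibitors such as p27 and for a repressor complex called DREAM, in which p130 or p107 joins E2F4 and a core called MuvB. Much of this control acts on protein stability and phosphorylation, and the arrays measured RNA only.

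The question asked of these genes was whether SP cells differ from non-SP cells in the RNA of proteins that hold cells in rest. None of the 9 measured members passed an adjusted p of 0.05 over all 19775 genes (limma, Benjamini-Hochberg), where 0% of all genes were called higher and 0.00506% lower in SP samples. CDKN1A was the 1 member with an unadjusted p under 0.05, and the 1 whose SP and non-SP values did not overlap. It was 1.52-fold higher in SP samples. The background for that side was 3.07% of genes by unadjusted p and 4.78% by lack of overlap. No member was lower by either rule, against 3.71% and 7.1% of all genes. By single probe sets, 0 of 22 passed over all probe sets (limma; backgrounds 0% higher and 0.00183% lower), 2 of 22 were higher by unadjusted p (background 3.79%) and 2 of 22 did not overlap on that side (background 5.59%), with 0 of 22 on the lower side (backgrounds 3.52% and 6.87%). The median difference over the 9 members was -0.11 on the log2 scale, with 4 above 0 and 5 below, beside a median of -0.02 over all genes, of which 45.2% were above 0.

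The reference promoters of CDKN1A and RBL1 are shown because CDKN1A is the member whose groups part, and because RBL1 is itself a known E2F target and so ties the family to the factors it restrains. Each line gives the 250 bases before the annotated start in the orientation of the gene, from RefSeq on GRCh38.p14, with matches to the GC box GGGCGG and to the E2F motif in capitals. The E2F motif was searched as TTTCCCGC, TTTCGCGC, TTTGCCGC and TTTGGCGC, and all motifs on both strands.
CDKN1A, chr6:36678464-36678713, plus strand: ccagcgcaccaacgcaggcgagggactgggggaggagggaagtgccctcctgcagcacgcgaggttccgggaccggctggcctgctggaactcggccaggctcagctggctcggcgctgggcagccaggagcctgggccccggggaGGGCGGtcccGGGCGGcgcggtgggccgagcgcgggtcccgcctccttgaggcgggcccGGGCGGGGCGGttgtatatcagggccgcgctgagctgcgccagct
RBL1, chr20:37095998-37096247, minus strand: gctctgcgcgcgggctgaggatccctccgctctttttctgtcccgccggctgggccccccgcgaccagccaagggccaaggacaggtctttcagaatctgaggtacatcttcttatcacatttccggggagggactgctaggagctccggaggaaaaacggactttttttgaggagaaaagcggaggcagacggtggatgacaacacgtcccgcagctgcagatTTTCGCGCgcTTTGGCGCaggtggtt
The CDKN1A stretch held 4 GC boxes, starting 104, 94, 45 and 40 bases before the start, the last pair overlapping, and no E2F match. GC boxes are known binding sites of the SP1 family, and 42.6% of 35116 promoter windows of the same length held at least 1. The RBL1 stretch held 2 E2F matches, TTTCGCGC and TTTGGCGC, starting 26 and 16 bases before the start, where 2.79% of all windows held 1 or more. Of the 9 windows of measured members other than RBL1, that of CDKN1A included, none held an E2F match. CDKN1C had no window. RB1 had only 1, at chr13:48476200-48476449 with a GC content of 36.8%, so other starts of RB1 were not searched. Such a match describes the letters only; no binding was measured.

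**Figure D1:**
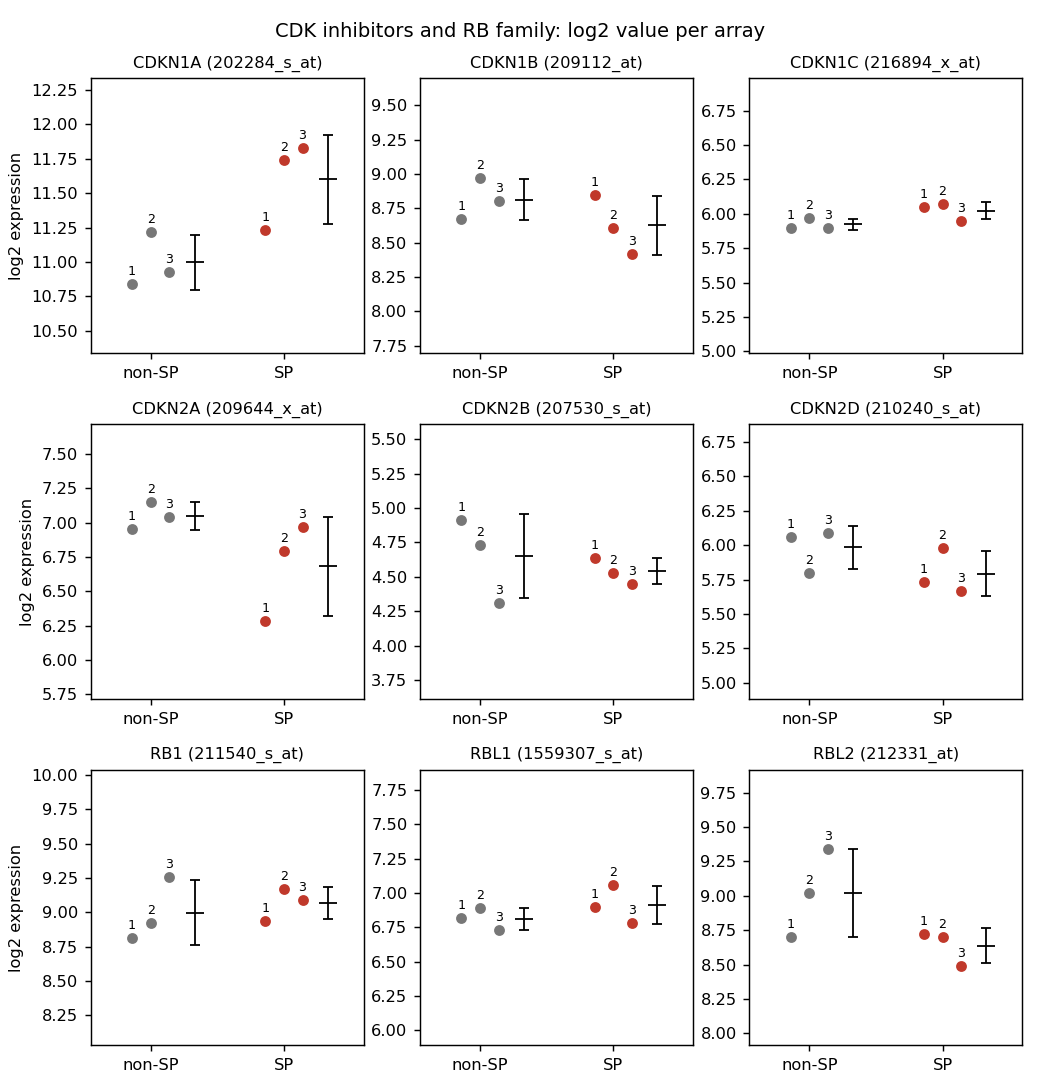
Log2 expression of each measured member on the 6 arrays, by the probe set used for the gene; points are samples with their replicate number, and bars give the mean ± SD (n = 3). Every panel spans the same range of 2 log2 units, and CDKN1A is the 1 panel in which all 3 SP points lie above all 3 non-SP points.

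Among the CIP/KIP inhibitors, CDKN1A encodes p21, a p53 target that stops the cycle after DNA damage and other stress. Its single probe set, 202284_s_at, read 10.84, 11.22 and 10.93 in non-SP samples 1 to 3 and 11.23, 11.74 and 11.83 in SP samples 1 to 3 (log2). The groups did not overlap, but SP replicate 1 exceeded non-SP replicate 2 by 0.01, while SP replicates 2 and 3 stood well clear. The SP mean was 11.60 ± 0.32 (SD, n = 3), beside 11.00 ± 0.20 (SD, n = 3) for non-SP samples. The difference was 0.60 (SE 0.20) with a 95% confidence interval from 0.13 to 1.08, or 1.09-fold to 2.11-fold. It did not pass over all genes (limma, unadjusted p = 0.0201, adjusted p = 0.62). Among all genes, 568 had a difference at least as high.

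CDKN1B encodes p27, the inhibitor most often tied to entry into rest. It read 8.67, 8.97 and 8.80 in non-SP and 8.85, 8.61 and 8.42 in SP samples. SP replicate 1 lay inside the non-SP range and the other two below it. The difference was -0.19 (interval -0.56 to 0.18; limma adjusted p = 0.903).

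CDKN1C encodes p57, an imprinted inhibitor active in development, and was read by 5 probe sets that did not move alike. The probe set used for the gene, 216894_x_at, lay between 5.90 and 5.97 in non-SP and between 5.95 and 6.07 in SP samples, a difference of 0.10 (interval -0.15 to 0.36). The probe sets 213182_x_at, 219533_at and 219534_x_at gave differences of -0.05, 0.00 and -0.07. The fifth, 213348_at, read 2.84, 2.88 and 3.31 in non-SP and 3.60, 3.87 and 3.73 in SP samples, so its groups did not overlap, and it is the second of the 2 probe sets counted as higher above. It is close to background: the brightest of 3 negative control probe sets read 3.17 to 3.53, and 213348_at was above it on 3 of 3 SP arrays but on 1 of 3 non-SP arrays, so no fold is given for it. Probe sets whose names end in _x_at hold probes that can match other transcripts as well.

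The INK4 inhibitors were read by 7 probe sets of 3 genes, all with differences below 0 and all with overlapping groups. Over all probe sets, 46.8% had differences above 0. The shared sign depended on single samples. With 1 sample left out, CDKN2B reached 0.02, 207039_at 0.11, 211156_at 0.05, 236313_at of CDKN2B 0.22 and 213586_at of CDKN2D 0.06. The probe sets used for CDKN2A and CDKN2D stayed below 0, at most -0.16 and -0.13. CDKN2A encodes p16INK4a and, from another first exon, p14ARF, which these values cannot tell apart. Its probe set 209644_x_at read 6.95, 7.15 and 7.04 in non-SP and 6.28, 6.79 and 6.97 in SP samples. SP replicate 1 was the lowest, SP replicate 2 was also below the non-SP range, and SP replicate 3 reached 0.02 into it. The difference was -0.36 (SE 0.20, interval -0.83 to 0.10; limma adjusted p = 0.822). The 2 other CDKN2A probe sets each differed by -0.26, with wider intervals of -1.29 to 0.77 for 207039_at and -0.94 to 0.42 for 211156_at.

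CDKN2B, whose product p15 acts downstream of TGF-beta, was read between 4.31 and 4.91 in non-SP and between 4.45 and 4.64 in SP samples by 207530_s_at, a difference of -0.11 (interval -0.53 to 0.31). Its second probe set, 236313_at, ranged from 3.55 to 4.60 in non-SP and from 3.10 to 5.05 in SP samples, wide in both groups. CDKN2D, which encodes p19INK4d, lay between 5.80 and 6.09 in non-SP and between 5.67 and 5.98 in SP samples by 210240_s_at, a difference of -0.19 (interval -0.54 to 0.16). Its other probe set, 213586_at, differed by -0.05. The intervals of all 7 include 0.

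The RB family genes all had overlapping groups and intervals that include 0. RB1, which encodes the retinoblastoma protein, read 8.81, 8.92 and 9.26 in non-SP and 8.94, 9.17 and 9.09 in SP samples by 211540_s_at, with all SP values inside the non-SP range. Its difference was 0.07 (interval -0.30 to 0.44), and its other probe set, 203132_at, gave 0.10. RBL1 encodes p107, which is made mainly in cycling cells. By 1559307_s_at it read 6.82, 6.89 and 6.73 in non-SP and 6.90, 7.06 and 6.78 in SP samples, a difference of 0.10 (interval -0.20 to 0.40), and 2 further probe sets gave 0.03 and 0.22. The RBL1 probe set 1555003_at was dimmer than the negative control mean on all 6 arrays, so its difference of -0.24 is not read as a difference of the gene.

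RBL2 encodes p130, the pocket protein that dominates in resting cells. By 212331_at it read 8.70, 9.02 and 9.34 in non-SP and 8.72, 8.70 and 8.49 in SP samples. Non-SP replicates 2 and 3 were above every SP sample, while non-SP replicate 1 lay 0.02 inside the SP range. The difference was -0.38 (SE 0.18, interval -0.82 to 0.06; limma unadjusted p = 0.0794, adjusted p = 0.782). The second RBL2 probe set, 212332_at, differed by -0.39 with a wider interval of -1.15 to 0.38.

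**Figure D2:**
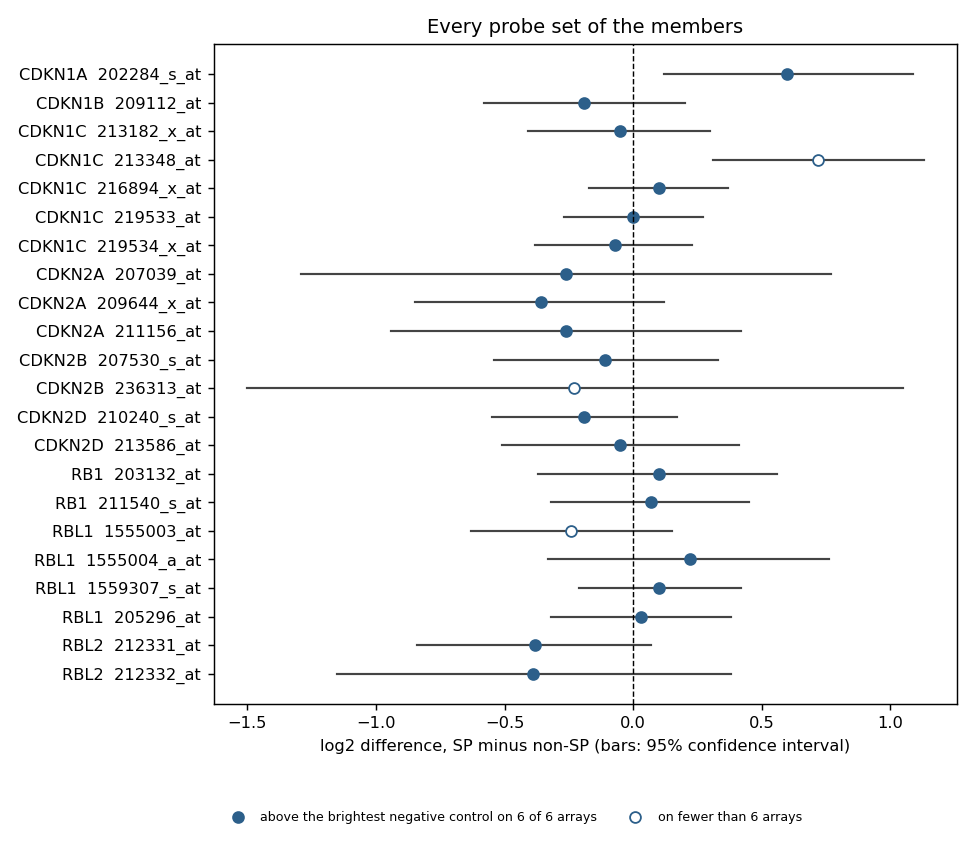
Log2 difference (SP minus non-SP) of each of the 22 probe sets with its 95% confidence interval from limma; filled points were above the brightest negative control on 6 of 6 arrays and open points on fewer. The intervals of CDKN1A and of the dim CDKN1C probe set 213348_at lie above 0, and the other 20 include 0.

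The 6 arrays fall into 2 sets along the first principal component of all genes, which carried 45.8% of the variance: non-SP replicates 1 and 3 with SP replicate 1 (set A), and non-SP replicate 2 with SP replicates 2 and 3 (set B). The sets come from the values and are not groups of the study. The ACTB 3' minus 5' signal, a sign of RNA quality, averaged 2.13 in set A and 2.50 in set B, and 2.34 in SP beside 2.29 in non-SP samples (exact permutation test, two-sided, p = 0.9, smallest possible 0.1). CDKN1A was higher in SP samples within both sets, by 0.35 and 0.56. RBL2 was lower in both, by -0.30 and -0.42, as was 209644_x_at of CDKN2A, by -0.72 and -0.26. These RBL2 values are for 212331_at; 212332_at differed by -0.14 and -0.12, and by -0.13 with the array set as a block. Of the other CDKN2A probe sets, 207039_at differed by -0.86 in set A and 0.17 in set B, and 211156_at by -0.21 and -0.07. CDKN1B differed by 0.11 in set A and -0.46 in set B. With the array set as a block, CDKN1A differed by 0.45 (SE 0.12) and RBL2 by -0.36 (212331_at, SE 0.20). In the same fit CDKN2A differed by -0.49 (209644_x_at, SE 0.15) and CDKN1B by -0.17 (SE 0.17). Each set holds 3 arrays, too few for a test within it. Beyond that fit, the part of the array sets in these results was not tested.

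The expression of the kinases and factors that these proteins act on was read from lists of the pathway. Of 15 measured kinases and cyclins of G1 and S phase, 0 passed over all genes (limma) and 0 had an unadjusted p under 0.05. Of the 15, 10 were above 0 and the median was 0.11. Over all genes, 3.07% were higher and 3.71% lower by unadjusted p, 45.2% were above 0 and the median was -0.02. CCND1, the cyclin D1 that partners CDK4 and CDK6, differed by 0.34 (SE 0.19), with 10.17, 10.53 and 10.05 in non-SP and 10.31, 10.72 and 10.73 in SP samples. CCND2 differed by 0.94 (SE 0.63), but ranged from 3.59 to 5.44 in non-SP and from 4.43 to 6.42 in SP samples, so that its groups overlapped widely, and with the array set as a block it differed by 0.45. CCNC, which joins the Mediator kinase, differed by 0.30 (SE 0.18) by 1 of its 2 probe sets, the other having the opposite sign, and CDK7, the CDK-activating kinase, by 0.11 (SE 0.12).

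Among 11 E2F and DP factors, 8 were above 0 (45.2% of all genes) and the median was 0.15. Of the 11, 0 passed over all genes (limma) and 1 was higher at an unadjusted p under 0.05 (3.07% of all genes). That 1 gene was E2F6, a repressor that does not bind the RB family. It read 7.06, 6.69 and 6.93 in non-SP and 8.04, 7.81 and 8.02 in SP samples, a gap with no overlap and a difference of 1.06 (limma adjusted p = 0.154). E2F3 differed by 0.41 (SE 0.18) and E2F1 by 0.35 (SE 0.18), both activators held in check by RB. TFDP2, a dimer partner of E2F, differed by -0.63 (SE 0.37), and each of these genes had overlapping groups. All 4 TFDP2 probe sets were below 0. With them averaged TFDP2 differed by -0.83 (SE 0.16, limma adjusted p = 0.305), and with the array set as a block by -0.35.

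Of 9 genes of the MuvB core and its partners, 0 passed over all genes (limma). At an unadjusted p under 0.05 there were 2, both higher (3.07% of all genes). The median was 0.33 with 7 above 0, beside -0.02 and 45.2% over all genes. LIN54, the DNA-binding subunit of MuvB, read 5.06, 5.01 and 4.89 in non-SP and 5.62, 5.45 and 5.54 in SP samples, a difference of 0.55 (SE 0.12, limma adjusted p = 0.415). It was read by 1 probe set, and all its values lay below the median gene level of 6.27. DYRK1A, the kinase that promotes DREAM assembly by acting on LIN52, read 8.64, 9.06 and 8.96 in non-SP and 9.33, 9.29 and 9.47 in SP samples, a difference of 0.47 (SE 0.15, limma adjusted p = 0.612), with 4 of its 5 probe sets above 0. Both had groups that did not overlap (4.78% of all genes on that side). Both were higher within each array set, LIN54 by 0.64 and 0.48 and DYRK1A by 0.52 and 0.32. LIN9 differed by 0.47 (SE 0.21), with 2 of its 3 probe sets above 0, and LIN52 by 0.51 (SE 0.33), with overlapping groups. With the probe sets of a gene averaged, DYRK1A differed by 0.28, LIN9 by 0.21 and LIN52 by 0.34. With the array set as a block, LIN52 differed by 0.24, LIN9 by 0.53, DYRK1A by 0.42 and LIN54 by 0.56.

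**Figure D3:**
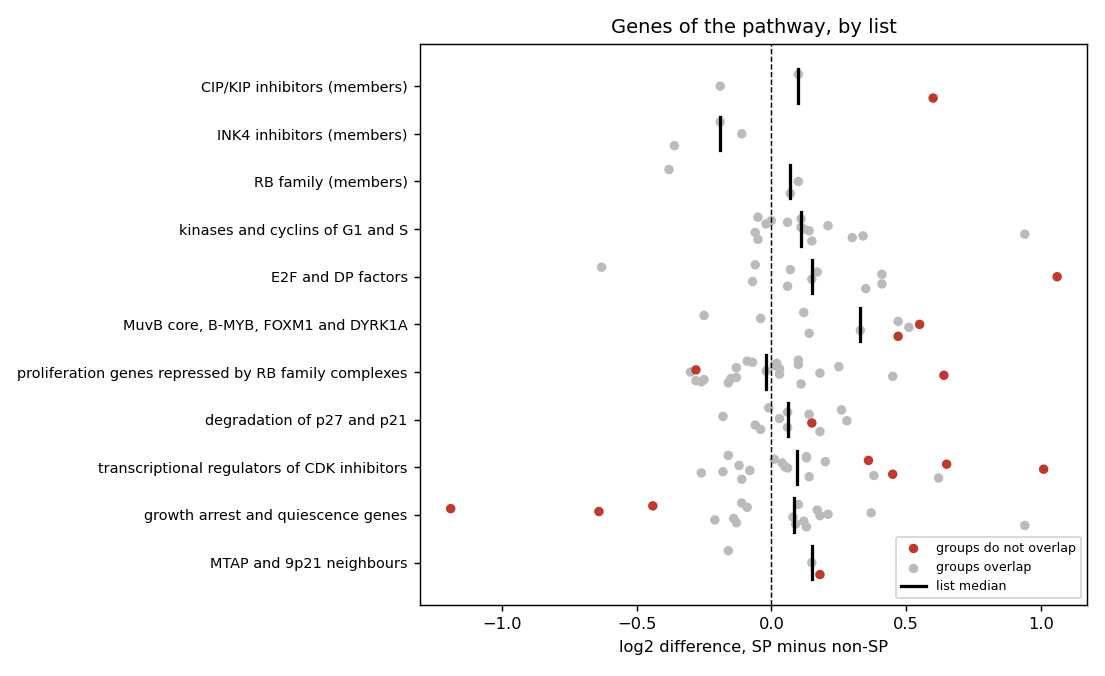
Log2 difference (SP minus non-SP) of each measured gene, by list, with the list median as a vertical bar; red points are genes whose groups do not overlap. The MuvB list has the highest median at 0.33, and the growth arrest list holds the lowest single difference, SESN3 at -1.19.

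Of 23 measured proliferation genes that RB family complexes are known to repress, 0 passed over all genes (limma). At an unadjusted p under 0.05, 1 was higher and 0 lower (3.07% and 3.71% of all genes). By lack of overlap, 1 was higher and 1 lower (4.78% and 7.1% of all genes). Of the 23, 11 were above 0 (45.2% of all genes) and 12 below, with a median of -0.02. CDK1, the mitotic kinase, read 8.37, 8.95 and 9.06 in non-SP and 9.52, 9.36 and 9.43 in SP samples, a difference of 0.64 (SE 0.20, limma adjusted p = 0.612), with all 4 probe sets above 0. MCM6, a subunit of the replicative helicase, differed by -0.28 (SE 0.12) without overlap, PCNA, the polymerase clamp, by 0.25 (SE 0.16) and CDC6, a licensing factor, by 0.45 (SE 0.30). CDC6 differed by -0.12 in set A and 0.57 in set B. MKI67, the source of the Ki-67 proliferation marker and named here after its values were seen, read 10.24, 8.17 and 9.92 in non-SP and 10.44, 8.83 and 8.67 in SP samples. Its 3 highest values were the arrays of set A and its 3 lowest those of set B, while its difference between SP and non-SP samples was -0.13 (interval -1.74 to 1.48), with 2 of its 4 probe sets below 0. Within the sets MKI67 differed by 0.36 and 0.58, and the median of the list was 0.11 in set A and 0.32 in set B.

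A list of 12 genes was read for the degradation of p27 and p21, though not all of them act on these proteins. Of the 12, 0 passed over all genes (limma) and 0 had an unadjusted p under 0.05 (3.07% higher and 3.71% lower of all genes). The median was 0.06, beside -0.02 over all genes. SKP2, the ubiquitin ligase subunit that recognises p27, differed by 0.26 (SE 0.18), its cofactor CKS1B by 0.18 (SE 0.11), FBXW7, which recognises cyclin E, by 0.28 (SE 0.14; 3 of its 4 probe sets above 0, and 0.01 with them averaged) and DTL, which recognises p21, by 0.15 (SE 0.11). DTL was the 1 gene of the 12 whose groups did not overlap, on the higher side (4.78% of all genes).

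Of 20 measured regulators of CDK inhibitor transcription, 0 passed over all genes (limma), 3 had an unadjusted p under 0.05, all higher (3.07% of all genes), and 4 had groups that did not overlap, all higher (4.78% of all genes). MYC, which represses CDKN1A together with ZBTB17, read 9.97, 9.64 and 10.01 in non-SP and 10.74, 10.46 and 10.39 in SP samples, a difference of 0.65 (SE 0.16, limma adjusted p = 0.497). KLF4, an activator of CDKN1A, read 5.82, 6.39 and 7.14 in non-SP and 7.56, 7.59 and 7.23 in SP samples, a difference of 1.01 (SE 0.33, limma adjusted p = 0.619) and just clear of overlap. With its probe sets averaged KLF4 differed by 0.59 (SE 0.22). FOXO1, which activates CDKN1B, differed by 0.45 (SE 0.15), with 3 of 3 SP samples above all non-SP samples. The fourth gene without overlap was SMAD4 at 0.36, named after its values were seen, and ETS1 differed by 0.62 (SE 0.27) with overlap.

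Growth arrest and quiescence genes had differences on both sides of 0. Of 18 measured, 0 passed over all genes (limma), and 0 were higher and 3 lower by unadjusted p (3.07% and 3.71% of all genes). Of the 18, 10 were above 0 (45.2% of all genes) and the median was 0.09. CCND2, counted above with the kinases and cyclins, is also 1 of these 18 and the highest of them at 0.94. TOB2, an antiproliferative protein of the BTG family, read 10.44, 10.37 and 10.64 in non-SP and 10.07, 10.04 and 10.03 in SP samples, a difference of -0.44 (SE 0.12, limma adjusted p = 0.555). SESN3, a sestrin induced by FOXO factors, read 5.31, 4.71 and 5.90 in non-SP and 4.42, 4.48 and 3.45 in SP samples, a difference of -1.19 (SE 0.39, limma adjusted p = 0.619), with all 7 probe sets below 0. One SP array of SESN3 was not above the brightest negative control. PDCD4 was above that control on 0 of 3 SP and 2 of 3 non-SP arrays, so no fold is given for it, although it is 1 of the 3 counted as lower.

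**Figure D4:**
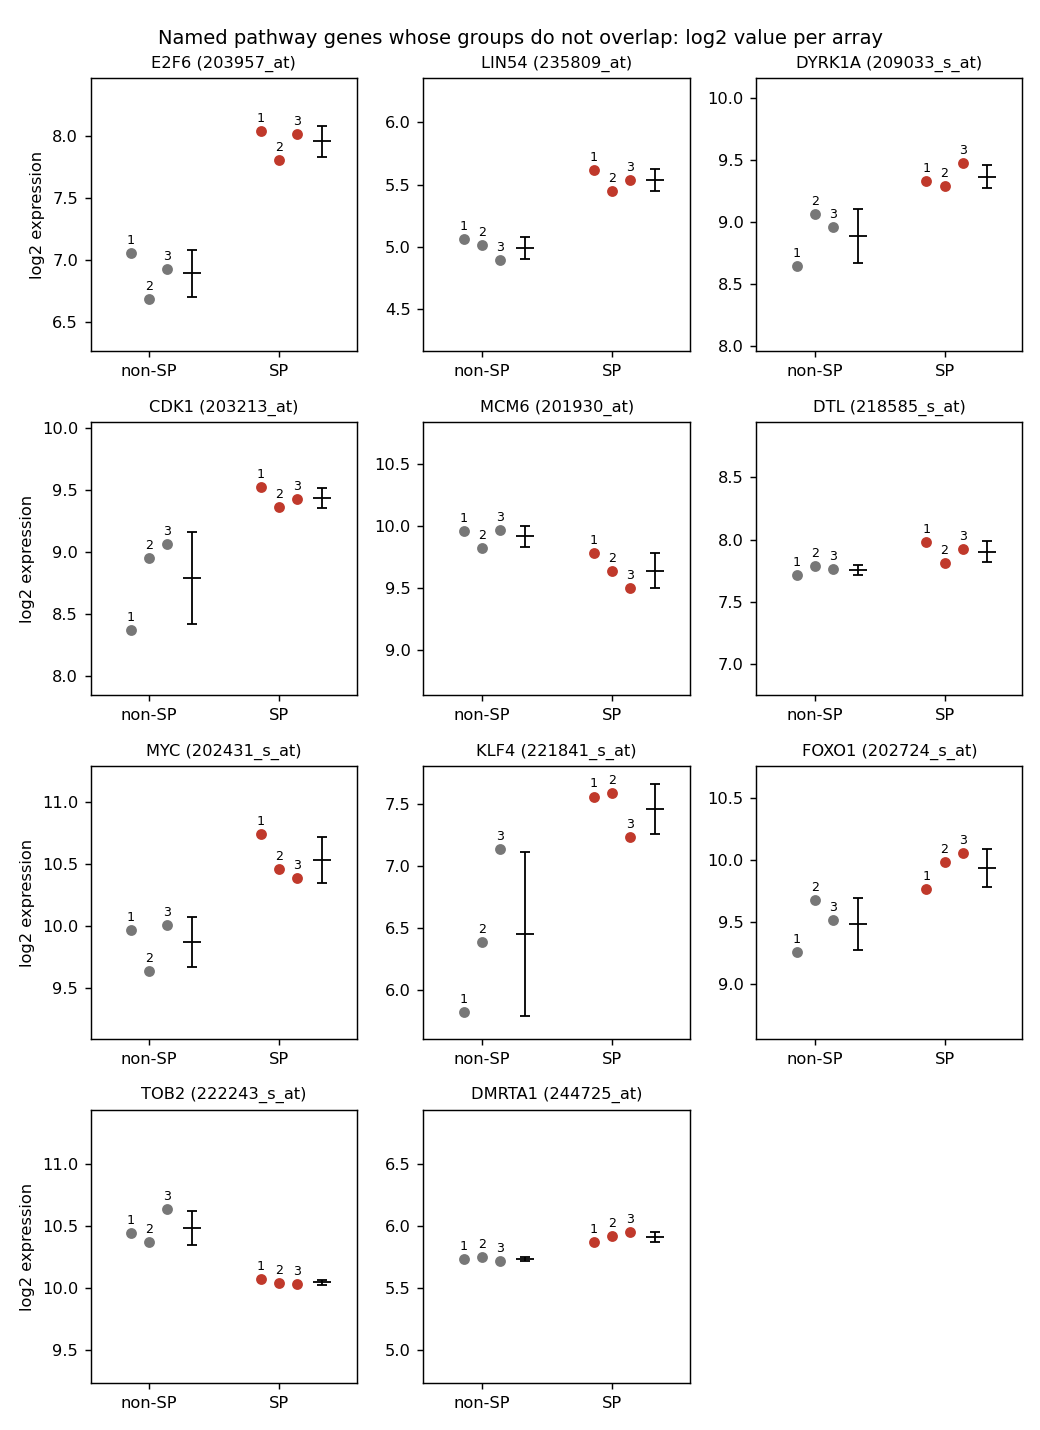
Log2 expression on the 6 arrays of the named pathway genes whose groups did not overlap and that were above the brightest negative control on every array; points are samples with their replicate number, bars the mean ± SD (n = 3), and every panel spans the same range of 2.2 log2 units. E2F6 shows the widest gap between groups, and TOB2 and MCM6 are the panels with SP points below the non-SP points.

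The neighbours of CDKN2A and CDKN2B on the chromosome were read as well, since the genes are often lost together in tumours. MTAP lay between 6.21 and 6.92 in non-SP and between 5.83 and 6.96 in SP samples, a difference of -0.16 (interval -0.93 to 0.61), and this was the 1 of its 6 probe sets with a difference below 0. DMRTA1 differed by 0.18 (SE 0.10) without overlap (4.78% of all genes on that side), and ELAVL2 was not above the brightest negative control on any array.

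The 5 genes outside the members whose values were most like those of CDKN1A over the 6 samples, of 9881 genes above the median level, were ZNF550 (Pearson r = 0.997), RRS1 (0.988), TLK2 (0.987), CADPS2 (0.986) and PRDM4 (0.986). They share the arrays, and 235 genes had r above 0.9, so the ranking is a description of these 6 values only. TLK2, a kinase of chromatin assembly in S phase, read 8.77, 9.22 and 8.86 in non-SP and 9.30, 9.66 and 9.71 in SP samples.

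The 10 epithelial and ovarian markers were all above the brightest negative control on every array, among them PAX8, EPCAM, KRT7 and KRT18. Of the 10, 3 had differences above 0 and 7 below; KRT7 (0.79), KRT8 (-0.71) and EPCAM (-0.15) had groups that did not overlap, 1 higher and 2 lower (4.78% and 7.1% of all genes), and CDH1 differed by 0.79 with overlap. None of the 10 passed over all genes (limma), and 2 were higher and 1 lower at an unadjusted p under 0.05 (3.07% and 3.71% of all genes). Of the markers of other cell types, 5 of 6 fibroblast, 2 of 4 leukocyte, 3 of 5 endothelial and 2 of 2 red cell genes measured were also above that control on every array. COL1A1 averaged 6.97 in SP and 7.07 in non-SP samples, CDH5 6.58 and 6.53, and CD14 5.33 and 5.37, whereas CD3E was dimmer than the negative control mean on all 6 arrays and PTPRC, the general leukocyte marker, on 5. The summed linear level of the fibroblast list was 217 to 224 in SP and 232 to 246 in non-SP samples. That of the leukocyte list was 67.7 to 73.8 and 66.3 to 77.7, that of the endothelial list 188 to 214 and 206 to 232, and that of the red cell list 62.5 to 70.3 and 71.0 to 73.6, and their part in the results was not tested. All samples were of 1 cell line, so these sums are not read as numbers of other cells. The source of the signals was not tested. In sorted bulk samples, the share of cells that express a gene and the RNA per cell cannot be told apart.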

How the data were processed

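RNA of 6 sorted IGROV1 samples went through a picogram-scale whole-transcriptome amplification with biotin labelling, per the labels' protocols. The authors deposited 1 log2 value per probe set and sample, from R 2.8.1, affy and RMA, per the submitters' processing notes. RMA adjusts background and gives all arrays 1 shared distribution, which hides any global shift in RNA amount and shrinks differences of dim probe sets. Array medians lay between 5.59 and 5.64. Precision is limited by how few arrays there are. Other RMA settings are not given in the sources.

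Of 54675 probe sets, 62 controls were left out; 41091 carried 1 symbol, 1801 several and 11721 none. A gene was read by its probe set with the highest mean over all 6 samples (19775 genes, no filter on dim ones). Members' other probe sets come from a fit over all 54613 probe sets. SP minus non-SP differences came from limma 3.58.1 under R 4.3.3 (lmFit, then eBayes; two-sided, no block), with Benjamini-Hochberg adjustment, a threshold of 0.05 and intervals at the 95% level; the script was tested on simulated data. SD and n refer to samples. The negative controls were the 3 trp probe sets. Alternatives were leaving out each sample, the replicate number or the array set as a block, averaging a gene's probe sets, leaving out dim genes, median centring, cyclic loess, array weights, and a robust prior with an intensity trend. Tables and figures were made with Python 3.11.15, pandas 2.3.3 and matplotlib 3.10.9. Members and lists were chosen with earlier results of these data known. The text names all members, up to 4 genes of each list by unadjusted p and the 5 genes most like the member with the smallest p, and says where another gene was named after its values were seen.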

Additional observations from a re-analysis of the deposited data

How the results depend on the processing

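None of the 9 members passed an adjusted p of 0.05 (limma) in the fit reported or in any of the 14 alternatives, of which the filter on dim genes left 6 members; at an unadjusted p under 0.05 the fit reported had 1. CDKN1A kept its direction in 14 of 14, between 0.45 and 0.79, with adjusted p from 0.255 to 1. RBL2 (-0.54 to -0.22), CDKN2A (-0.51 to -0.16) and CDKN1B (-0.30 to -0.09) kept theirs too. Of 57 gene and probe set differences, 13 changed sign in at least 1 alternative and 0 changed their call. With 1 sample left out, CDKN2B ranged from -0.28 to 0.02, RB1 from -0.03 to 0.20 and MTAP from -0.41 to 0.15. The probe sets that turned were 213182_x_at (-0.11 to 0.06), 219533_at (-0.04 to 0.03), 219534_x_at (-0.11 to 0.00), 207039_at (-0.62 to 0.11), 211156_at (-0.43 to 0.05), 236313_at (-0.75 to 0.22), 213586_at (-0.19 to 0.06), 203132_at (-0.08 to 0.20) and 205296_at (-0.05 to 0.15). With a gene's probe sets averaged, CCNC turned to -0.03 and MTAP to 0.14, with array weights MTAP turned to 0.04, with median centring 219533_at to 0.00, and with the array set as a block 219533_at to 0.01 and 203132_at to -0.01. The cause was not tested. The 1 gene called among 19775 became 3 with the replicate block, 5 with the array set as a block, 0 with a gene's probe sets averaged, 0 with the filter on dim genes and 12 with array weights, and 1 to 2 with 1 sample left out. The 1 probe set called became 0 with the replicate block, 5 with the array set as a block and 0 to 2 with 1 sample left out. With the replicate block CDKN1A differed by 0.60 (SE 0.15, limma adjusted p = 0.44). Same-numbered samples correlated in their deviations at 0.45, 0.38 and -0.21, so the numbers were not taken to pair the samples. Over the alternatives the medians ranged from -0.16 to -0.03 for the members, from 0.14 to 0.42 for the MuvB list, from 0.05 to 0.19 for E2F and DP factors, from -0.01 to 0.22 for kinases and cyclins, from -0.21 to 0.20 for proliferation genes and from -0.05 to 0.12 for growth arrest genes. With 1 sample left out, CCND2 ranged from 0.41 (without SP replicate 2) to 1.46 (without non-SP replicate 2), CDC6 from 0.28 (without SP replicate 2 or 3) to 0.79 (without SP replicate 1), PCNA from 0.12 (without non-SP replicate 2) to 0.34, and 212332_at of RBL2 from -0.65 (without non-SP replicate 2) to -0.17 (without SP replicate 3). CCND2 was 0.41 with its probe sets averaged and CDC6 0.22 with the array set as a block. The probe sets 213348_at of CDKN1C, 236313_at of CDKN2B and 1555003_at of RBL1 were not above the brightest negative control on every array. Their dimness limits what they tell of these genes.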
